A study of Mus musculus with 6 samples.

Results

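The H2 region, the mouse major histocompatibility complex (MHC), was examined as a distant partner of a bait in the Satb1 gene in 4C data. Its members are the 10893 DpnII fragments of chromosome 17 with a midpoint between 33500000 and 37500000 (mm9), out of 229546 fragments listed for that chromosome and 916352 listed over the whole series. They were chosen by position alone. The bait lies at 51962000, inside Satb1 (chr17:51875512-51972615), so the region lies 14.5 to 18.5 Mb below it. Of the 41 genes named H2- that the annotation places on chromosome 17, 40 lie inside, and H2-M2 lies just above the upper border.

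4C counts the fragments that become ligated to 1 chosen fragment, the bait, in fixed nuclei. The Satb1 bait was used in 2 of the 6 libraries of the series, 1 from DP thymocytes and 1 from ES cells. DP cells were CD4+/CD8+ thymocytes of c57/Bl6 mice, sorted by FACS from the thymus at 4 weeks of age, and ES cells were the J1 line (strain 129S4/SvJae), passaged off feeder cells before harvest. The labels give no treatment, transgene or deletion for either, and both were fixed with 2% formaldehyde for 10 min and cut with DpnII and then Csp6I.

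The H2 region holds the genes by which cells show peptides to T cells. Class I molecules (H2-K1, H2-D1) present peptides made inside the cell to CD8+ T cells, class II molecules (H2-Aa, H2-Ab1, H2-Eb1) present peptides taken up from outside to CD4+ T cells, and the stretch between them, class III, holds complement, heat shock and cytokine genes. DP thymocytes are the stage at which T cell receptors are tested against these molecules, and Satb1 encodes a nuclear protein that organizes chromatin in thymocytes.

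A read ends at a DpnII site, so the identity of a contact is the sequence beside GATC. The fragments shown here are the most-read ones of each library, which were picked after their values were seen, and the most-read ones found in both. All are written 5′ to 3′ along the plus strand of mm9 with both flanking DpnII sites (GATC) and any internal Csp6I site (GTAC) in capitals. Where a fragment is long, the 26 bases read from each end are given in its place, each written from its own GATC inward.
H2-K1, chr17:34133582-34133841: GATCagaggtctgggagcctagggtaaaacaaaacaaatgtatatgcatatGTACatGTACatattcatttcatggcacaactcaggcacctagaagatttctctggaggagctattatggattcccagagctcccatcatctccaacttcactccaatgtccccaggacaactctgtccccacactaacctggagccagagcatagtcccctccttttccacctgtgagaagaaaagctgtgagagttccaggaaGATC
Trim31 side, chr17:37056098-37056261: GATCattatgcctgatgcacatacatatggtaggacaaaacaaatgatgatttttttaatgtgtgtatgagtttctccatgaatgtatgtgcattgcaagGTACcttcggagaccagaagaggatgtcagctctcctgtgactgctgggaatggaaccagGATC
H2-M11 side, chr17:36649604-36649719: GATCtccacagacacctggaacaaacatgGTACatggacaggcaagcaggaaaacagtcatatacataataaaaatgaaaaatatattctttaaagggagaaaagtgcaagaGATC
H2-Q2 side, chr17:35467631-35467915: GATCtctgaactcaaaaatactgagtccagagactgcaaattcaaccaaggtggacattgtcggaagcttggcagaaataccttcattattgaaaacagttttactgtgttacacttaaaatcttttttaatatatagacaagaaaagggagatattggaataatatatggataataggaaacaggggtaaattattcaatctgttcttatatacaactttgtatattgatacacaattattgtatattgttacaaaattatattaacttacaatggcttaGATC
Gabbr1, chr17:37198038-37199058, lower end: GATCtttatcaaccagctgttgtcac
Gabbr1, chr17:37198038-37199058, upper end: GATCcagaaaaggcgacaccacagcc
H2-Ob side, chr17:34368320-34368727, lower end: GATCtaggggagctatctgtgttttc
Olfr93 side, chr17:37273963-37274526, lower end: GATCcagtgttttcttacctatctta
Olfr93 side, chr17:37273963-37274526, upper end: GATCcagtagtcctatatcttacaga
The H2-K1 fragment overlaps coding sequence of that gene and carried 1126 reads in DP and 0 in ES. The Trim31 fragment lies 8.94 kb from that gene and carried 0 reads in DP and 1518 in ES, and the Olfr93 fragment, 13.4 kb from an olfactory receptor gene, carried 0 in DP and 1972 in ES. The other 4 were read in both libraries. The fragment 34.3 kb from H2-M11, in no annotated gene, had 11 reads in DP and 27 in ES, and the fragment in Gabbr1, which encodes a GABA B receptor subunit, had 9 in DP and 308 in ES. The fragment 7.12 kb from H2-Ob had 9 reads in DP and 6 in ES, and that 5.59 kb from H2-Q2 had 1 in DP and 33 in ES. Every end shown occurs 1 time among all DpnII ends of the genome at this read length, whereas the upper end of the H2-Ob fragment, not shown, occurs 1782 times.

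Distant contacts were sparse in both libraries. The libraries held 1997083 reads in DP and 1847598 in ES, of which 14.2% and 22.5% lay beyond 5 Mb from the bait. There 2134 of 204103 fragments had at least 1 read in DP, a detected share of 1.05%, against 4279 in ES, a share of 2.10%. PCR copies cannot be told from separate ligations in these counts, so detection of a fragment, and not its read count, was taken as the measure, and a detected share was divided by the share beyond 5 Mb in the same library (the scaled share). A contact in few cells and a rare contact in all cells cannot be told apart. Intervals are exact Clopper-Pearson 95% intervals on fragments, or 95% log-normal intervals on ratios. They cover counting error only. With 1 library per cell type there is no replicate, so no difference between DP and ES was tested.

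In the H2 region 135 fragments were detected in DP, a share of 1.24% (1.04% to 1.47%), against 191 in ES, a share of 1.75% (1.52% to 2.02%). The scaled share was 1.19 in DP (0.997 to 1.41) and 0.836 in ES (0.724 to 0.966). Relative to each library's own distant background the region was thus detected 1.42 times as often in DP as in ES (1.13 to 1.77), although the plain share in DP was 0.707 times that in ES (0.568 to 0.880). That order depended on which fragments served as background. DP cells had a share 0.942 times as large above the bait as below it (1.01% against 1.07%), and ES cells one 2.18 times as large (2.97% against 1.36%). Scaled to the lower side alone, where the region lies, its share became 1.29 in ES and the ratio of DP to ES became 0.897.

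On the scaled measure both flanks differed more between the libraries than the region did, in opposite directions. The 5 Mb below the region, farther from the bait, had a detected share of 1.38% in DP (1.18% to 1.60%) and 1.11% in ES (0.934% to 1.32%). The 5 Mb above it, nearer to the bait, had 0.529% in DP (0.415% to 0.663%) and 2.01% in ES (1.79% to 2.26%). The scaled ratio of DP to ES was therefore 2.48 in the lower flank (1.97 to 3.13), 1.42 in the region and 0.526 in the upper flank (0.406 to 0.682), and the region stood between its neighbours.

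In DP the region was close to its lower flank, with a share 0.900 times as large (0.718 to 1.13; 1.00 over fragments with a unique end and 1.06 with flanks of 2.5 Mb), and 2.34 times its upper flank (1.77 to 3.11). In ES it was 1.58 times its lower flank (1.27 to 1.96) and 0.870 times its upper flank (0.726 to 1.04). Against both flanks together it stood at 1.34 in DP (1.09 to 1.66) and 1.10 in ES (0.927 to 1.30; 0.971 with shares of reads). The region also differed from its flanks in make-up. It held 203 protein-coding genes in 4 Mb, against 94 in the 5 Mb of the lower and 51 in those of the upper flank, and its mean GC content of 46.6% was near that of the lower flank (46.8%) and above that of the upper (37.9%). At least 1 unique end was found on 82.2% of its fragments, against 90.7% in the lower and 68.0% in the upper flank. The part of base composition or mappability in the difference between flanks was not tested. Among 20 windows of 4 Mb beyond 5 Mb from the bait, the region ranked 7 by scaled share in DP and 11 in ES, and 10 by the ratio of DP to ES. The ranks were 5, 3 and 9 among the 11 windows below the bait, whose ratios ran between 0.559 and 4.95.

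**Figure D1:**
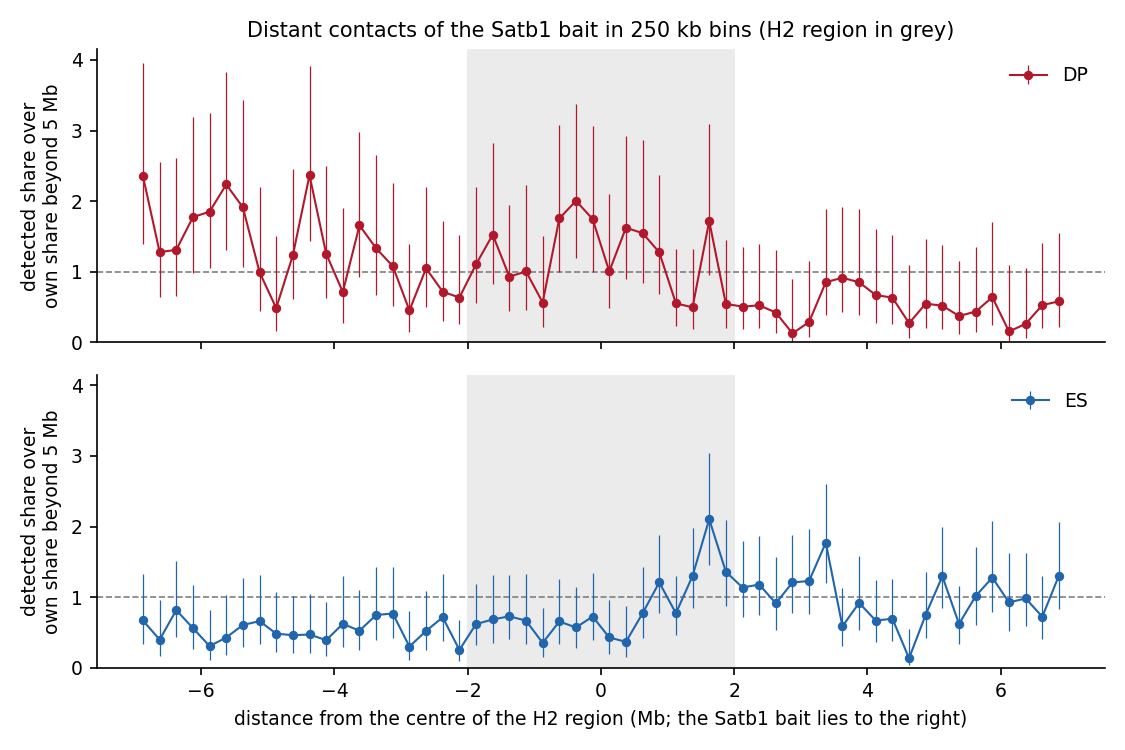
Scaled detected share (the share of fragments with a read over that of the same library beyond 5 Mb) in bins of 250 kb, DP above and ES below, against the distance in Mb from the centre of the H2 region (grey), with lines for 95% intervals. Inside the region the bins run between 0.497 and 2.00 in DP and between 0.352 and 2.10 in ES, and the highest DP bin and the highest ES bin lie in different parts of it.

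Within the region the contacts of the libraries lay in different places. In bins of 500 kb from the lower border upward, DP detected 18, 13, 16, 26, 18, 20, 9 and 15 fragments, and ES detected 18, 19, 14, 18, 11, 29, 35 and 47. The highest DP share was in the bin at 35000000 to 35499999, where class III ends and H2-D1 lies, with 1.96% in DP (1.29% to 2.86%) against 1.36% in ES. The highest ES share was in the last bin, at 37000000 to 37499999, with 1.14% in DP against 3.58% in ES (2.64% to 4.73%). The scaled ratio of DP to ES was 2.01, 1.37, 2.29, 2.90, 3.28 and 1.38 in the first 6 bins and 0.516 and 0.640 in the last pair. Of the 8 intervals on these ratios, 4 excluded 1, all of them above it, in the bins that begin at 33500000, 34500000, 35000000 and 35500000. The intervals also excluded 1 in 6 of the 10 bins of the lower flank and in 4 of the 10 of the upper flank. All these ratios were scaled to all distant fragments, not to those below the bait alone. In bins of 250 kb, the highest DP bin was that at 35000000, with 14 of 668 fragments and a scaled share of 2.00 in DP against 0.571 in ES. The highest ES bin was that at 37000000, with a scaled share of 1.72 in DP against 2.10 in ES, where 27 of 612 fragments were detected.

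**Figure D2:**
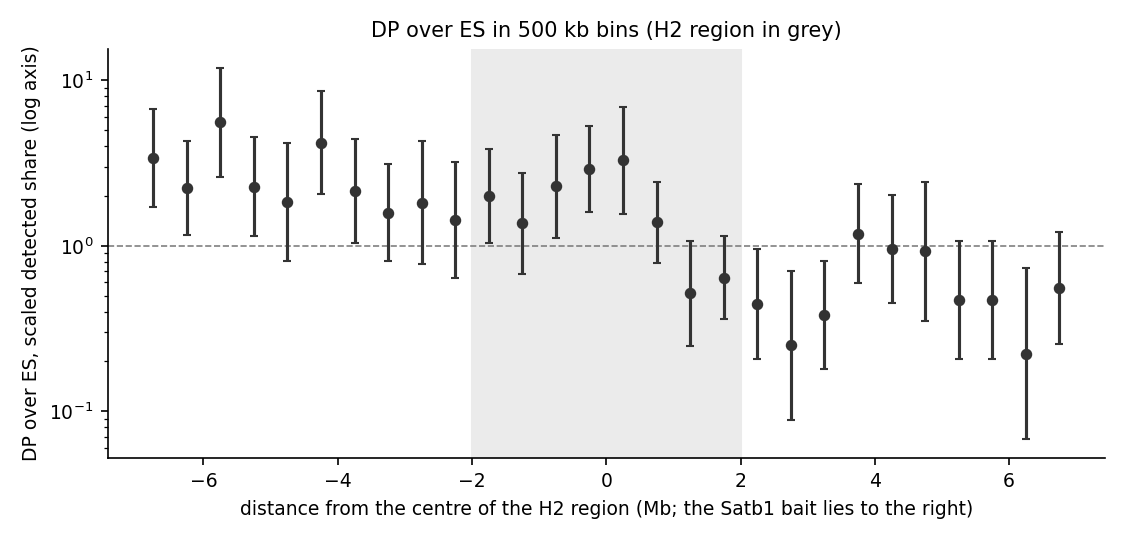
Ratio of the scaled detected share in DP to that in ES (log axis) in bins of 500 kb across the H2 region (grey) and its flanks, with 95% log-normal intervals, against the distance in Mb from the centre of the region. The first 6 bins of the region lie between 1.37 and 3.28, and the last 2 lie at 0.516 and 0.640 on the side of the bait.

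Counts of bins were read against the same counts outside. Of the 40 bins of 100 kb in the region, 19 (47.5%) had a scaled share at least 1.5 times higher in DP, where 32.5% of all 824 distant bins did and 47.3% of the 440 below the bait. The share in the region was thus close to that of its side of the bait. At least 1.5 times higher in ES were 6 bins (15.0%), against 24.9% of all distant bins and 11.1% of those below the bait. In bins of 250 kb, 10 of 16 (62.5%) were higher in DP, against 34.7% of all and 56.2% of those below the bait, and 2 (12.5%) in ES, against 34.7% and 13.6%. In bins of 500 kb the counts were 4 of 8 in DP (50.0%, against 34.9% and 59.1%) and 2 of 8 in ES (25.0%, against 36.7% and 15.9%). The 6 bins of 100 kb higher in ES all lay at or above 36200000, and 18 of the 19 higher in DP lay below it. That position is the start of the lowest of these 6 bins, so it was taken from the same calls. Few of the calls were resolved by the counts. Of the 40 bins, 3 had an interval on the ratio that excluded 1, those at 33900000, 35900000 and 36000000, all higher in DP. The intervals of all 6 bins higher in ES held 1. Scaling also turned equal counts into a call, as at 35800000, where 2 fragments in each library gave a ratio of 2.01.

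Dividing the region at genes counted the same fragments again with other borders, and the step was seen there as well. From the lower border to H2-K1, which encodes the classical class I heavy chain at this end of the complex, 21 of 1691 fragments were detected in DP and 19 in ES, a scaled ratio of 2.22 (1.19 to 4.12). From H2-K1 to Notch4, 14 of 1469 were detected in DP and 22 in ES (ratio 1.28, 0.654 to 2.49). This stretch holds the class II genes and the antigen processing genes other than Tapbp, and also Ring1, Rxrb and Col11a2. Around Col11a2 there were 0 fragments in DP and 7 in ES, and around the class II genes 6 in DP and 8 in ES. From Notch4 to H2-D1, the class III stretch and the densest in genes (90.2 per Mb), 32 of 1827 were detected in DP and 24 in ES (ratio 2.67, 1.58 to 4.53). On this scaled ratio the stretch from H2-K1 to Notch4 was thus the only one of these 3 whose interval held 1. On the plain ratio the intervals of all 3 held 1 (0.596 to 2.05, 0.327 to 1.24 and 0.789 to 2.25).

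From H2-D1 to Pou5f1, where the Q genes lie, 7 of 669 fragments were detected in DP and 5 in ES, and the interval was wide (ratio 2.81, 0.894 to 8.81). Only 60.4% of fragments there had a unique end, the lowest share of the 7 blocks. From Pou5f1 to H2-T24, 26 of 1258 were detected in DP, a share of 2.07% (1.35% to 3.01%), and 12 in ES, a share of 0.954% (0.494% to 1.66%). The scaled ratio of 4.34 (2.20 to 8.59) was the highest of the 7 blocks, and the plain shares also differed, by a ratio of 2.17 (1.10 to 4.27). The next block, from H2-T24 to Trim39, had 8 of 699 detected in DP and 20 in ES, shares of 1.14% (0.495% to 2.24%) and 2.86% (1.76% to 4.38%), and a scaled ratio of 0.802 (0.355 to 1.81). From Trim39 to the upper border, the stretch of M and olfactory receptor genes, 27 of 3280 were detected in DP, or 0.823% (0.543% to 1.20%), against 89 in ES, or 2.71% (2.18% to 3.33%), a scaled ratio of 0.608 (0.395 to 0.936). The share in ES in the last 2 blocks was above that in any of the 5 below them.

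**Figure D3:**
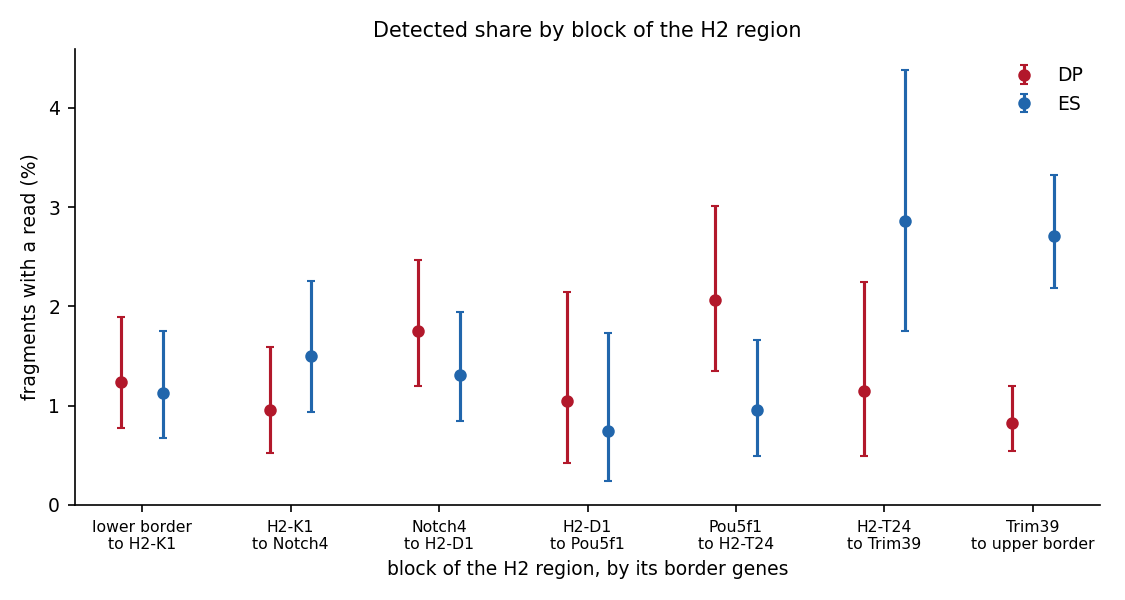
Share of fragments with a read (%) in DP (left point of each pair) and ES (right point) in 7 blocks of the H2 region named by their border genes, from the lower border to the upper, with exact 95% intervals. DP is highest between Pou5f1 and H2-T24 (2.07%), and ES is highest in the last 2 blocks (2.86% and 2.71%).

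H2-T24, a nonclassical class I gene at 36142640, marked where the order turned, and the split there was chosen after the blocks had been seen. In the 5 blocks below it the plain share was higher in DP in all but the stretch from H2-K1 to Notch4, where the plain ratio was 0.636. Only from Pou5f1 to H2-T24 did the interval on the plain ratio exclude 1 (1.10 to 4.27). Below H2-T24, 100 of 6914 fragments were detected in DP (1.45%, 1.18% to 1.76%) and 82 in ES (1.19%, 0.944% to 1.47%), a plain ratio of 1.22 (0.912 to 1.63). That was close to the plain ratio of the lower flank, 1.24 (0.987 to 1.55), and both intervals held 1. From H2-T24 on, 35 of 3979 were detected in DP (0.880%, 0.613% to 1.22%) and 109 in ES (2.74%, 2.25% to 3.30%), a plain ratio of 0.321 (0.220 to 0.469), near the 0.262 of the upper flank. The ratio below H2-T24 was 3.80 times that above it (2.36 to 6.12), a figure that no scaling between libraries changes. It was 3.25 to 4.44 when only fragments with more reads, a unique end, a Csp6I site or at least 100 bp were used, or when the reads of ES beyond 5 Mb were thinned to the 283623 of DP. Both the interval and this range take the chosen split as given, so neither covers that choice. The upper stretch is also nearer to the bait, and a place along the complex and distance from the bait cannot be told apart here.

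Among the classical class I genes, taken with 10 kb on either side as for all genes named here, H2-K1 had 3 of 64 fragments detected in DP, with 1365 reads, and 0 in ES, which allows a share of up to 4.69% there. The 3 of 64 in DP lie within that limit, so a difference at H2-K1 was not detectable at this depth. H2-D1 had 0 in DP and 1, with 29 reads, in ES. Most single genes held at most a few detected fragments, and neighbouring windows shared them, so lists of genes were counted with each fragment taken 1 time.

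The 9 class II genes held 6 of 469 fragments detected in DP (1.28%) and 8 in ES (1.71%), and 4 of the genes had a contact in DP and 7 in ES. H2-Eb2 had 2 fragments in DP (565 reads) and 3 in ES (215 reads), and H2-Oa, a chain of the H2-O molecule that modulates peptide loading, had 2 in DP (493 reads) and 1 in ES (62 reads). The share of the list was thus near that of the whole region in both libraries. H2-Ab1 and H2-Aa, which overlap, shared 1 fragment in ES with 194 reads, H2-Aa had 1 in DP with 3 reads, and H2-Eb1 had 0 in DP and 1 in ES with 4 reads. The counts of 0 in DP allow shares of up to 5.66% at H2-Ab1 and 4.17% at H2-Eb1. H2-DMb1 and H2-DMb2, which encode the beta chains of the peptide exchange factor H2-DM, had none in either library. The 5 antigen processing genes, for which 214 fragments were counted, had 3 detected in DP and 0 in ES. Tap1, a subunit of the peptide transporter, and Psmb9, an immunoproteasome subunit, shared 2 of these with 224 reads, and Tapbp, which encodes the loading factor tapasin, had the other with 8. Tap2 and Psmb8 had none in either. The count of 0 in ES allows a share of up to 1.40%, and its exact interval reaches 1.71%, which holds the ES share of 1.19% of the region below H2-T24.

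The extended class II side holds housekeeping genes around Rps18 and Vps52 and the collagen gene Col11a2. The 13 genes measured had 3 of 597 fragments detected in DP (0.503%) and 10 in ES (1.68%), a scaled ratio of 0.602 whose interval held 1 (0.166 to 2.18). Col11a2 had 0 of 152 in DP and 7 in ES, with 760 reads. By count in ES it equalled Gabbr1 (7 of 129) and stood below only Trim26 (8 of 94) among the listed genes. Wdr46, B3galt4, Rps18 and Vps52 shared 1 fragment in DP, with 399 reads, and had none in ES. Around Ring1, Rxrb and Col11a2 there were no DP contacts, and from Kifc1 to Vps52 there were none in ES.

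Class III held the genes with the most DP fragments. The 3 heat shock genes, Hspa1a, Hspa1b and Hspa1l, had 6 of 146 fragments detected in DP (4.11%, 1.52% to 8.73%) and 1 in ES (0.685%, 0.017% to 3.76%), with overlapping intervals. Hspa1b had 5 in DP, with 169 reads, and 0 in ES, and each of the 5 had a unique end, although Hspa1a and Hspa1b are near copies of each other. The 4 complement genes had 8 of 341 detected in DP (2.35%) and 6 in ES (1.76%), of which C4b, a complement factor 4 gene, had 3 in DP (1030 reads) and 0 in ES, and Cfb, complement factor B, had 2 in DP (222 reads) and 4 in ES (73 reads). Tnxb, the tenascin X gene beside C4b, had 6 of 174 in DP (1661 reads) and 2 in ES (12 reads). That was the highest DP count of any listed gene, but in the largest window of them, where Hspa1b had 5 of 73. The cytokine genes Ltb, Tnf and Lta lie so close that all had the same contacts, 1 fragment in DP with 400 reads and 3 in ES with 19. The 24 other class III genes had 18 of 1313 detected in DP (1.37%) and 16 in ES (1.22%). Windows of 10 of these genes held a contact in DP and of 20 in ES, but neighbours shared them, as Pbx2, Ager and Rnf5 shared 1 in ES. Aif1, expressed in macrophages, had 1 fragment with 706 reads in DP and 0 in ES.

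The nonclassical class I genes fell on both sides of the step. The 6 Q genes, below it, had 5 of 415 fragments detected in DP (1.20%) and 2 in ES (0.482%), with 4 of the genes without a contact in either library. These genes are near copies of each other, and 58.1% of the fragments counted for them had a unique end, against 82.2% in the whole region. The 7 T genes had 4 of 432 in DP (0.926%) and 12 in ES (2.78%), and the 11 M genes inside the region had 4 of 802 in DP (0.499%, 0.136% to 1.27%) and 18 in ES (2.24%, 1.34% to 3.52%). In H2-Bl alone, among the T genes, there were 0 in DP and 5 in ES with 662 reads, and in H2-T3, which encodes the thymus leukaemia antigen, 2 in DP (553 reads) and 2 in ES (8 reads). H2-M3, which presents formylated bacterial peptides, had 0 in DP and 2 in ES with 8 reads. The 17 olfactory receptor genes beyond the M genes had 6 of 693 in DP (0.866%, 0.318% to 1.87%) and 19 in ES (2.74%, 1.66% to 4.25%). Windows of 16 of the 17 held a contact in ES and of 8 in DP, but neighbouring windows shared fragments, so these are not separate contacts.

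Between and around the class I clusters lie framework genes with general roles, and they were the list with the highest count of detected fragments in both libraries, and among the 2 with the most fragments, 30 of 1304 fragments in DP (2.30%, 1.56% to 3.27%) and 42 in ES (3.22%, 2.33% to 4.33%). By share, the heat shock, classical class I and complement lists stood above it in DP and the cytokine list in ES, each with few fragments. Of the 25 genes, 23 had a contact in DP and 20 in ES, with some fragments shared between neighbouring windows. Divided at H2-T24, those below it had 18 of 726 fragments detected in DP and 9 in ES, and those above it 12 of 578 in DP and 33 in ES. These fragments are among those on which the split was chosen. Below it, Mdc1, a DNA damage response mediator, had 4 in DP (903 reads) and 1 in ES (2 reads), and Flot1, which encodes flotillin 1, had 3 in DP (110 reads) and 2 in ES (281 reads). Prr3 had 3 in DP (527 reads) and 1 in ES (2 reads), and Gnl1 beside it 2 in DP (526 reads) and 0 in ES. Above it, among the tripartite motif genes, Trim31 had 2 in each library and the other 5 listed had more in ES. Trim26 had 0 in DP and 8 in ES (1925 reads), Trim15 had 1 in DP (184 reads) and 6 in ES (1709 reads), and Gabbr1 had 3 in DP (39 reads) and 7 in ES (600 reads). Pou5f1, the pluripotency gene OCT4, which is active in ES cells, had 1 of 74 fragments in DP, with 114 reads, and 2 in ES, with 41, and the intervals on both shares held those of the whole region.

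The single bins of 100 kb with the highest shares lay on different sides of H2-T24 in the libraries. The highest in DP was that at 35900000, over Ier3, Flot1, Tubb5, Mdc1 and Nrm, with 7 of 250 fragments in DP (2.80%) and 3 in ES. It was followed by the bin at 33900000, over Angptl4, Kank3, Rps28, Ndufa7 and Cd320, with 7 of 259 in DP and 3 in ES, and by that at 36000000, over Dhx16, Ppp1r10 and Abcf1, with 6 of 246 in DP and 2 in ES. The highest in ES was that at 36900000, over H2-M10.5, H2-M10.6, Trim26 and Trim15, with 1 of 255 in DP and 14 in ES (5.49%). The bins at 37200000, from Gabbr1 to Olfr93, and 37000000, from Trim15 to Znrd1, followed with 4 of 256 and 5 of 233 fragments in DP and with 13 and 11 in ES. At the low end, DP had 0 of 346 fragments at 36500000, over H2-M10.3 and H2-M10.4, which allows a share of up to 0.867%, and ES had 3 there. ES had 0 in 3 bins, at 34000000 (Kifc1 to Vps52, 292 fragments), 34600000 (the butyrophilin genes Btn3a3, Btnl6 and Btnl7, 307 fragments) and 35500000 (H2-Q4, H2-Q6 and H2-Q7, 280 fragments), which allow shares of up to 1.03%, 0.977% and 1.07%. In the last of these only 35.4% of fragments had a unique end, so its limit over all 280 says less. DP had 2, 2 and 1 there.

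Few fragments were found in both libraries, here as in the rest of the distant chromosome, where detection was as sparse. Of the 319 fragments of the region detected in either, 7 were in both, 5.19% of those in DP and 3.66% of those in ES, and beyond 5 Mb as a whole the overlap was 4.31% of DP and 2.15% of ES. ES detected 1.75% of all fragments of the region and 2.10% beyond 5 Mb, and DP detected 1.24% and 1.05%. A fragment detected in 1 library was thus detected in the other more often than fragments at large. Over the 16 bins of 250 kb in the region, the scaled share in DP and that in ES were nearly unrelated (Pearson r = -0.034, Spearman rho = -0.262). The DP share ran with GC content (r = 0.600, rho = 0.641) and the ES share against it (r = -0.516, rho = -0.500). The share of fragments with a unique end went with the DP share about as closely (r = 0.580, rho = 0.574) and hardly with the ES share (r = 0.036, rho = -0.141). With the number of protein-coding genes, the values were r = 0.595 and rho = 0.475 in DP and r = -0.028 and rho = 0.010 in ES. These are descriptions over neighbouring bins of 1 library each, which share depth, base composition and distance from the bait. With GC content, r was 0.355 in DP and -0.329 in ES over bins of 100 kb, and 0.554 and -0.722 over those of 500 kb. Grouped by their own GC content, the fragments of the region showed no steady rise or fall. At up to 40%, 40 to 50% and over 50% GC, the shares were 1.59%, 1.01% and 1.39% in DP. In ES they were 1.64%, 2.05% and 1.33%.

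Fragment properties that the choice of the region did not use were compared next. Fragments in a protein-coding gene were detected at 1.60% in DP against 0.991% outside genes, while in ES the values were 1.74% in genes and 1.77% outside. Detection in genes was also higher beyond 5 Mb as a whole, 1.30% against 0.883% in DP and 2.32% against 1.95% in ES. Within 1 kb of a transcription start the share was 1.11% in DP and 1.76% in ES, close to the region as a whole, whereas beyond 5 Mb it was 1.48% in DP, above the 1.05% of all fragments there, and 1.88% in ES, below the 2.10%. Properties of the assay went the same way in both libraries. Fragments with a Csp6I site were detected at 1.57% in DP and 2.17% in ES, and those without at 1.00% in DP and 1.46% in ES. Fragments with no unique end were nearly unseen, 3 of 1942 in DP (0.154%) and 7 in ES (0.360%).

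Median reads per contact were close in the libraries, and single reads were more common in DP. A detected fragment of the region had a median of 27 reads in DP and 25 in ES, and at most 1126 and 1972. Single reads made up 22 of the 135 detected fragments in DP (16.3%) and 17 of the 191 in ES (8.90%), and 85 in DP and 123 in ES had at least 10 reads. These values were much as beyond 5 Mb as a whole. There the medians were 23 and 24 reads, and single reads made up 15.1% in DP and 9.02% in ES. At least 10 reads were found on 1370 of 2134 detected fragments in DP and 2783 of 4279 in ES. The 10 most-read fragments held 43.4% of the region's reads in DP and 40.6% in ES, so sums of reads rest on few ligations. By block the median differed more, with 1 read between H2-D1 and Pou5f1 and 67.5 between H2-K1 and Notch4 as the lowest and highest in DP, and 11 between Notch4 and H2-D1 and 59 below H2-K1 in ES.

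**Figure D4:**
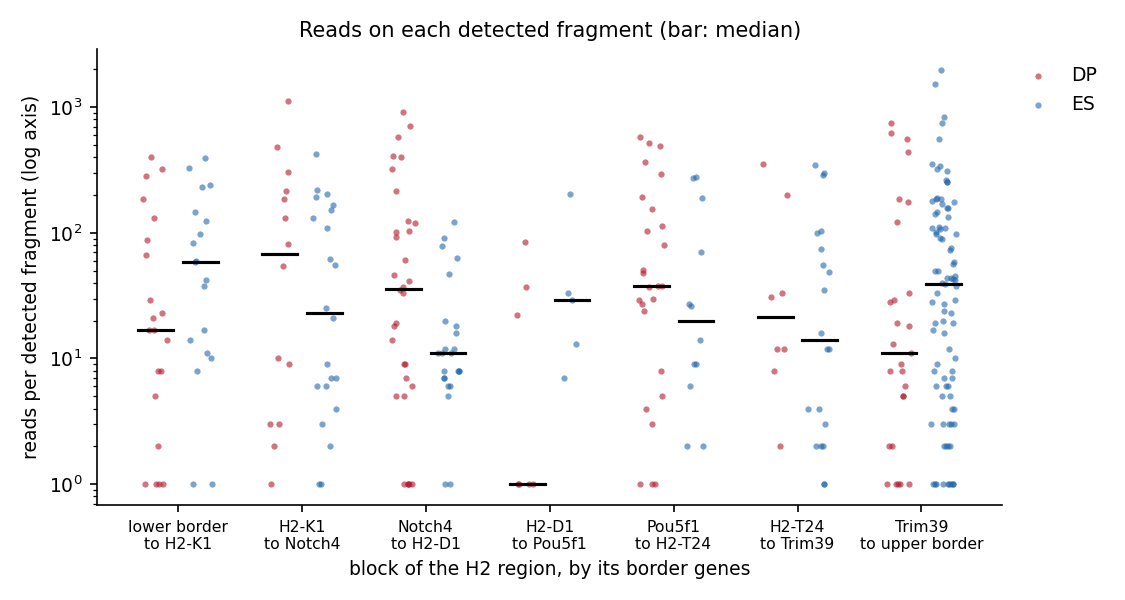
Reads on each detected fragment (log axis) by block of the H2 region in DP (left of each pair) and ES (right), with a bar at the median. The most-read DP fragment (1126 reads) lies in the block that begins at H2-K1, the most-read ES fragment (1972) in the last block, and DP has no single read in the block from H2-T24 to Trim39.

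After the H2-K1 fragment, the most-read DP fragments were in Tnxb (909 reads, over coding sequence, with 1 of its ends unique), 1.67 kb from Olfr95 (750), in Aif1 (706), 3.13 kb from H2-M10.5 (627) and again in Tnxb (579). None of these 6 had a read in ES. After the Olfr93 and Trim31 fragments, those of ES were in Trim26 (835 reads, over coding sequence), 30.9 kb from H2-M10.4 (740), 8.07 kb from Olfr93 (558) and 3.13 kb from Col11a2 (421), and none of these 6 had a read in DP. Such absence from the other library was usual in the region. Of all its detected fragments, 7 were in both libraries, 5.19% of those in DP and 3.66% of those in ES. Contacts lay a median of 19.6 kb apart in DP and 12.6 kb in ES. The longest stretch without one was 161 kb in DP, chr17:36489063-36649659, across H2-M10.3 and H2-M10.4, and 177 kb in ES, chr17:33945665-34122199, which spans Daxx, Tapbp and Vps52. Only 5 pairs of neighbouring fragments were both detected in DP and 3 in ES, and 20.9% of the spacings in DP and 27.4% of those in ES were under 5 kb.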

How the data were processed

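The deposited values are read counts for each DpnII fragment of the chromosome that holds the bait. To make them the authors trimmed the bait with Sabre, mapped the remaining 26 nt to mm9 and assigned reads to fragments, and their user guide leaves out fragments with an excess of reads. The submitters' notes name Bowtie 1.0.0 and bcl2fastq. Options for reads that map to several places are not given in the sources used here, and duplicates were not removed. The Methods state a stronger SDS treatment for DP cells than the labels do, and J1 reads (129S4/SvJae) were mapped to a C57BL/6 genome. Effects of these on the shares were not tested.

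Listed fragments were matched to the mm9 sequence, and genes are those of GENCODE vM1. Python 3.11.15 was used with numpy 2.4.6, scipy 1.17.1, pandas 2.3.3 and matplotlib 3.10.9, and the counting was tested on simulated data. A fragment was detected with at least 1 read, bins needed at least 50 fragments, no ratio was formed against 0, and the limit for a count of 0 is 3 fragments of the total. For calls of bins as higher, a count of 0 was set at that limit if the other library had more than 3 fragments. No bin of the region was called in this way, but distant bins could be. The 4 libraries of other baits list other chromosomes and were not used here. Region, lists and alternatives were chosen with earlier results of these data known. Named are genes of the lists, genes in the 3 highest and lowest bins of each library and of each ratio, and genes at the 4 most-read shared fragments. Alternatives changed the reads for detection, fragments counted, background, depth, measure, flank width, borders, bin size and fold.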

Additional observations from a re-analysis of the deposited data

Results flagged for a closer look

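For 3 comparisons the H2 region lay above its background in 1 library and below it in the other, and with 1 library per cell type the difference was not tested. Against all fragments beyond 5 Mb its share was 1.19 times as large in DP and 0.836 times in ES. Against the lower flank it was 0.9 times in DP, with an interval that held 1 (0.718 to 1.13) and values of 1.00 over fragments with a unique end and 1.06 with flanks of 2.5 Mb, and 1.58 times in ES. Against the upper flank it was 2.34 times in DP and 0.87 times in ES, where the interval also held 1 (0.726 to 1.04).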

How the results depend on the processing

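Of 130 alternative values, 121 stayed within the interval of the main value or, for counts of bins, within 1.5 times. Of these, 4 nonetheless crossed 1, where the main interval held 1: the DP share over its lower flank (0.900) was 1.00 over fragments with a unique end and 1.06 with flanks of 2.5 Mb, and the ES share over both flanks (1.10) was 0.971 with shares of reads and 0.959 with counts capped. The 121 include 7 values for the split at H2-T24, which was chosen after the blocks had been seen. They also include the DP shares after thinning, which could not change because DP had the smaller total. Scaling to the fragments below the bait alone reversed 2 values, the region's share in ES to 1.29 (0.836 against all distant fragments) and the ratio of DP to ES to 0.897 (1.42 against all). Over all settings that ratio ran between 0.897 and 1.49. The remaining 7 moved. With at least 5 reads for detection, the DP share over its upper flank was 3.26, and with shares of reads, the ES share over its upper flank was 0.708, or 0.723 with counts capped, and the cause was not tested. Bins higher in DP numbered 10 at 250 kb and 4 at 500 kb, and bins higher in ES 2 at either size, since there are only 16 and 8 such bins. No paired analysis was possible because each cell type has 1 library with this bait. With 1.24% of fragments detected in DP and 1.75% in ES, depth limits any statement on a single gene or fragment.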
